A study of Sus scrofa with 13 samples.

Results

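The genes described here encode fibulins, fibrillin and matrix glycoproteins of connective tissue: FBLN1, FBLN2, FBLN5, FBN1, ELN, FN1, POSTN, SPARC, MGP and THBS4. They were found by symbol, either in the deposited tables or as the reference name of the Ensembl identifier. The 10 symbols matched 11 of the 25322 genes counted, since SPARC stood under 2 identifiers, and every one of them passed the expression filter in each comparison. The set was proposed with results of these pigs in view: FBLN1 was higher in pigs with high loin weight in both breeds, and MGP was a gene the study picked for real-time PCR from the same pigs. The differences between high and low loin weight are therefore given for these genes as a description, with no p-value, and counts of them past a threshold stand only beside the share of all genes.

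RNA came from longissimus lumborum muscle of 13 female pigs, all 6 months old. In the Hampshire breed 3 pigs had a high and 3 a low weight of loin, and in the Pietrain breed 4 had a high and 3 a low weight. The pigs were unrelated, kept under the same conditions and chosen from a larger population for extreme loin weight. The groups are called Hampshire-high, Hampshire-low, Pietrain-high and Pietrain-low below, and a pig's number only names it. Levels are given as CPM, the reads of a gene scaled to a common library size after TMM normalisation over all pigs. The libraries held 11312755 to 20134612 counted reads. The muscle markers ACTA1, CKM, MYH1, DES and MYLPF were abundant in every pig, each at 2401 CPM or more, while MYH7, the slow fibre myosin, ran from 6.57 to 6960 CPM. Whole tissue was sequenced, so more cells of a type and more RNA per cell cannot be told apart.

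In muscle, fibres are wrapped in connective tissue sheaths made mainly by fibroblasts. Fibrillin-1 polymerises into microfibrils, on which elastin is laid down and crosslinked, and the fibulins bind to both and help to organise elastic fibres. Fibronectin is an adhesive scaffold bound by integrins. Periostin, SPARC and thrombospondin-4 are matricellular proteins, which act on cells and on collagen assembly more than as structural parts, and matrix Gla protein, which depends on vitamin K, restrains calcification.

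FBLN1 (ENSSSCG00000000010, chromosome 5 of Sscrofa10.2 from 1071720 to 1158793) encodes fibulin-1, a calcium-binding glycoprotein of elastic fibres and basement membranes. Its level was 9.33, 32.0 and 21.2 CPM in Hampshire-high pigs 8, 9 and 10 and 4.47, 7.29 and 6.66 CPM in Hampshire-low pigs 1, 2 and 3. In Pietrain-high pigs 1, 2, 6 and 7 it was 7.89, 5.73, 3.64 and 4.25 CPM, and in Pietrain-low pigs 3, 5 and 8 it was 3.37, 1.19 and 0.672 CPM. In each breed every pig with high loin weight lay above every pig with low loin weight. FBLN1 was chosen with this rise known, so its separation is a description only. Of all genes, 22.4% were apart and higher in this way in Hampshire and 2.08% in Pietrain. Values of the other genes are given in this order of pigs. The gene rests on few reads, 10 to 352 per pig, the fewest of the set. The log2 fold change (LFC) for high against low loin weight was 1.76 (SE, standard error, 0.407) in Hampshire and 1.65 (SE 0.532) in Pietrain. With each Pietrain pig left out in turn, the Pietrain LFC lay between 1.26 and 2.60.

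FBLN2 (ENSSSCG00000011609, chromosome 13 from 78256434 to 78359474) encodes fibulin-2, which binds fibronectin, fibrillin and the elastin precursor. FBLN2 stood at 31.2, 60.2 and 46.0 CPM in Hampshire-high pigs 8, 9 and 10 and 15.9, 17.5 and 21.8 CPM in Hampshire-low pigs 1, 2 and 3. The Pietrain pigs had 21.6, 15.4, 7.27 and 14.3 CPM in the high group and 13.8, 9.66 and 7.53 CPM in the low group. The loin weight groups were apart in Hampshire and overlapped in Pietrain, where high loin weight pig 6 had the lowest value of all. The LFCs were 1.31 (SE 0.249) and 0.54 (SE 0.353).

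FBLN5 (ENSSSCG00000002444, chromosome 7 from 120031685 to 120114530) encodes fibulin-5, needed for the assembly of elastic fibres. FBLN5 stood at 19.1, 51.4 and 37.2 CPM in Hampshire-high pigs 8, 9 and 10 and 7.23, 15.1 and 11.1 CPM in Hampshire-low pigs 1, 2 and 3. The Pietrain pigs had 7.45, 9.09, 7.27 and 7.55 CPM in the high group and 6.08, 10.9 and 8.81 CPM in the low group. The Hampshire groups were apart, while the Pietrain groups lay within each other. The LFC was 1.68 (SE 0.376) in Hampshire and -0.10 (SE 0.245) in Pietrain.

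FBN1 (ENSSSCG00000004658, chromosome 1 from 137103320 to 137303566) encodes fibrillin-1, the core of the microfibril. Fibrillin-1 reads came to 11.03, 21.6 and 17.4 CPM in Hampshire-high pigs 8, 9 and 10 and 6.98, 13.8 and 14.9 CPM in Hampshire-low pigs 1, 2 and 3. Its Pietrain levels were 18.7, 27.3, 30.9 and 7.80 CPM in the high group and 19.2, 10.4 and 11.9 CPM in the low group. The groups overlapped in both breeds, and the highest level of all pigs was in Pietrain pig 6, the animal with the lowest FBLN2. The LFC of FBN1 in Hampshire, 0.49 (SE 0.324), was the smallest of the set, and in Pietrain it was 0.63 (SE 0.418).

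ELN (ENSSSCG00000025858, chromosome 3 from 10929442 to 10935871) encodes elastin, the core protein of the elastic fibre, and its model on this assembly spans only 6430 bases. Elastin reads came to 6.06, 19.1 and 14.5 CPM in Hampshire-high pigs 8, 9 and 10 and 3.25, 8.21 and 4.34 CPM in Hampshire-low pigs 1, 2 and 3. In Pietrain the values were 3.62, 6.71, 1.30 and 3.90 CPM in the high group and 4.52, 1.90 and 2.76 CPM in the low group. The groups overlapped in both breeds, with LFCs of 1.32 (SE 0.451) and 0.37 (SE 0.515).

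FN1 (ENSSSCG00000016174, chromosome 15 from 130357873 to 130430503) encodes fibronectin. FN1 stood at 65.0, 271.6 and 174.2 CPM in Hampshire-high pigs 8, 9 and 10 and 24.1, 78.0 and 76.8 CPM in Hampshire-low pigs 1, 2 and 3. In Pietrain all 7 pigs lay between 43.5 and 81.7 CPM, at 64.2 ± 20.1 CPM (SD over 4 pigs) in the high and 54.6 ± 5.81 CPM (SD over 3 pigs) in the low group. High loin weight pig 8 of Hampshire lay below low loin weight pigs 2 and 3. The LFCs were 1.52 (SE 0.542) and 0.26 (SE 0.249).

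POSTN (ENSSSCG00000009361, chromosome 11 from 13198182 to 13233797) encodes periostin, a fibroblast product that binds collagen and fibronectin. POSTN stood at 8.31, 67.2 and 53.5 CPM in Hampshire-high pigs 8, 9 and 10 and 2.27, 23.3 and 23.8 CPM in Hampshire-low pigs 1, 2 and 3. Pietrain levels of POSTN were 4.05, 20.1, 35.4 and 5.45 CPM in the high group and 15.6, 14.6 and 12.1 CPM in the low group. Its levels varied most within groups: the within-group SD of log2 CPM was 1.46, larger than that of 98.0% of the 12831 genes, against a median of 0.37 over all genes. The LFCs were 1.39 (SE 0.833) in Hampshire and 0.23 (SE 0.615) in Pietrain, and without Pietrain pig 6 the latter was -0.47.

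SPARC, which encodes a collagen-binding glycoprotein also called osteonectin, stood under ENSSSCG00000017082 (chromosome 16 from 77576865 to 77582777) and under ENSSSCG00000017083 (scaffold GL894053.2 from 48146 to 60885). The counting could have divided reads between the 2 models, and the scaffold model had 1.31 to 2.03 times the CPM of the chromosome 16 model in each pig. The scaffold model was counted at 125.6, 210.2 and 189.1 CPM in Hampshire-high pigs 8, 9 and 10 and 62.0, 119.4 and 95.8 CPM in Hampshire-low pigs 1, 2 and 3. Its Pietrain levels were 76.3, 102.7, 67.5 and 52.5 CPM in the high and 78.5, 42.9 and 40.3 CPM in the low group. The chromosome 16 model had 73.3 to 106.3 CPM in Hampshire-high against 41.8 to 69.0 CPM in Hampshire-low, and 26.2 to 62.6 CPM in Pietrain-high against 24.3 to 44.7 CPM in Pietrain-low. In both models the Hampshire groups were apart and the Pietrain groups overlapped. The LFCs of the scaffold model were 0.92 (SE 0.273) and 0.50 (SE 0.297), and those of the chromosome 16 model 0.76 (SE 0.227) and 0.62 (SE 0.321).

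MGP (ENSSSCG00000000606, chromosome 5 from 61054166 to 61058328) encodes matrix Gla protein. MGP stood at 201.8, 644.5 and 231.3 CPM in Hampshire-high pigs 8, 9 and 10 and 82.2, 139.2 and 106.6 CPM in Hampshire-low pigs 1, 2 and 3. Pietrain levels of MGP were 86.3, 120.3, 113.7 and 82.2 CPM in the high and 89.5, 79.9 and 53.4 CPM in the low group. Pig 9 alone was at over 2 times the level of any other pig. The LFC of MGP was 1.71 (SE 0.427) in Hampshire, 0.96 without pig 9, and 0.47 (SE 0.230) in Pietrain.

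THBS4 (ENSSSCG00000014117, chromosome 2 from 90502275 to 90549368) encodes thrombospondin-4, found in muscle and tendon matrix. Its level was 13.4, 18.0 and 27.6 CPM in Hampshire-high pigs 8, 9 and 10 and 6.18, 14.1 and 10.5 CPM in Hampshire-low pigs 1, 2 and 3. Pietrain levels of THBS4 were 14.8, 12.7, 10.19 and 4.50 CPM in the high and 7.47, 4.59 and 4.17 CPM in the low group. The groups overlapped in both breeds, and the LFCs, 0.95 (SE 0.344) and 0.99 (SE 0.395), were close in size.

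**Figure D1:**
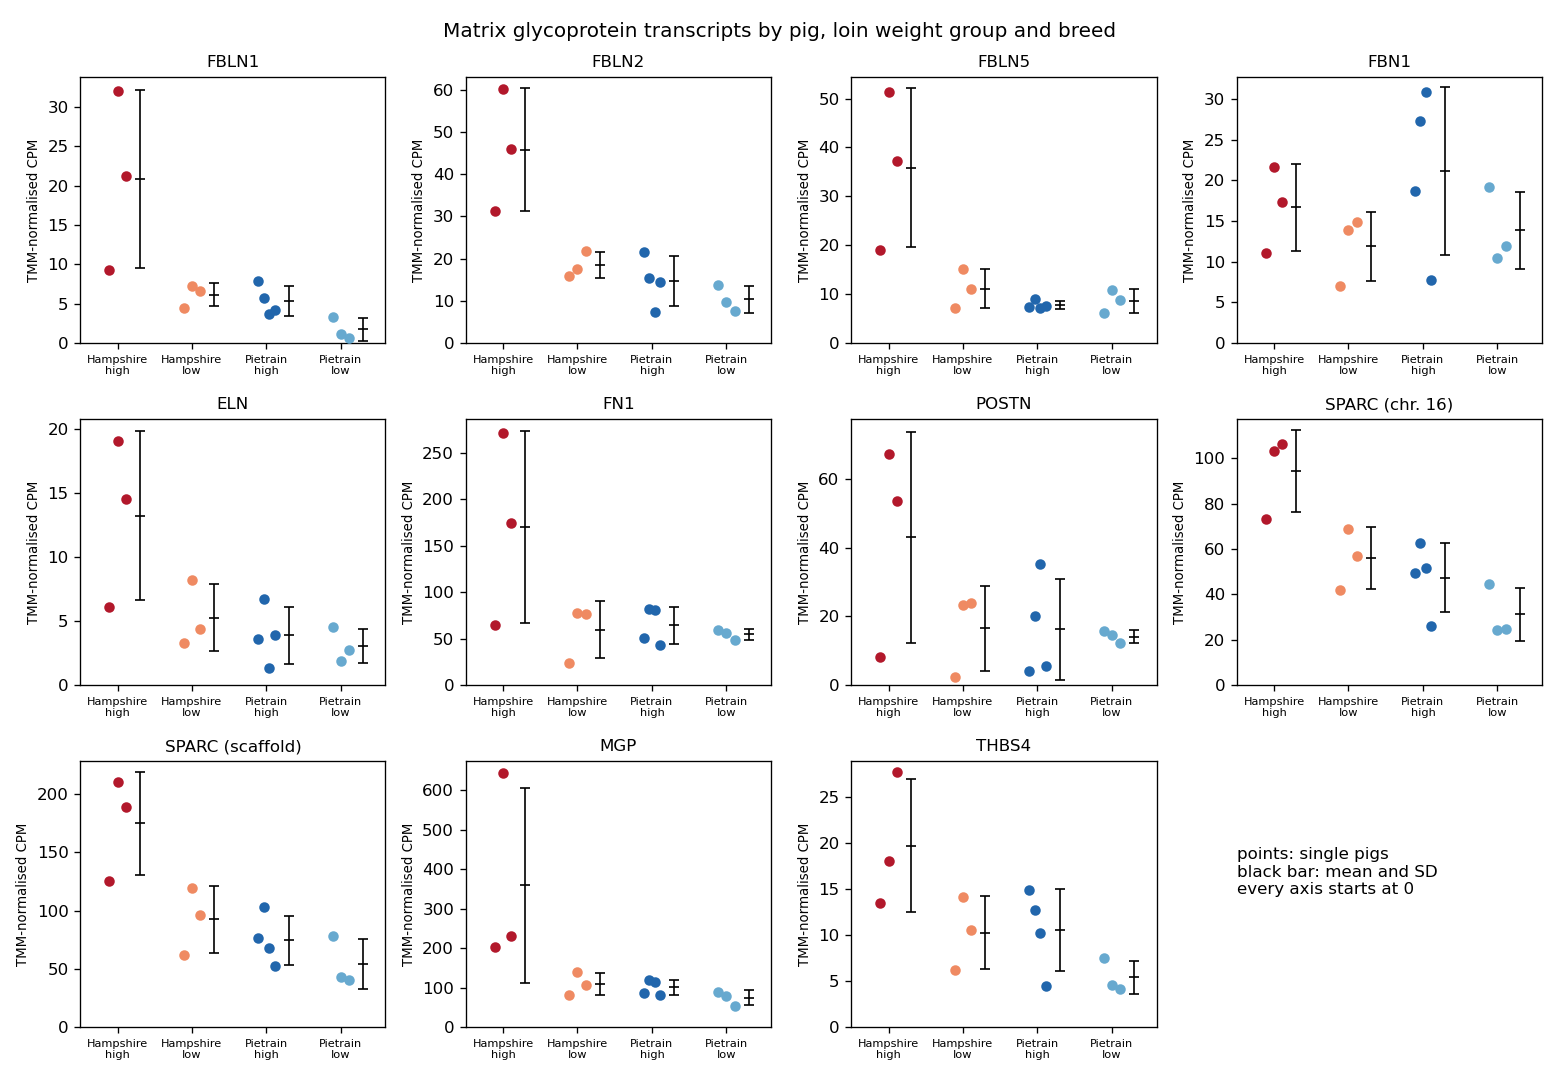
TMM-normalised CPM of each gene (vertical axes, from 0) in the 4 groups of pigs; each point is a pig and the black bar is the group's mean and SD. In Hampshire the groups of FBLN1, FBLN2, FBLN5, both SPARC models and MGP do not overlap, and in Pietrain only FBLN1 keeps its groups apart. Of all genes, 22.4% were apart and higher with high loin weight in Hampshire and 2.08% in Pietrain.

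In Hampshire the LFC for high against low loin weight was above 0 for all 11 identifiers, from 0.49 to 1.76, with a median of 1.32. Over all 12228 genes tested, the median was 0.03 and 51.6% were above 0. A gene was called where its Benjamini-Hochberg p over all genes in edgeR's quasi-likelihood fit was under 0.05 and its level changed 1.2-fold or more. By that rule 6 of the 11 were higher, namely FBLN1, FBLN2, FBLN5, both SPARC models and MGP, beside 12.0% of all genes called higher and 14.6% called lower. The count was 2 without high loin weight pig 9 or without low loin weight pig 1, 1 without low loin weight pig 3, and 8 with DESeq2, which added ELN and THBS4. The groups did not overlap for the same 6 identifiers, all higher with high loin weight, as they did for 22.4% of all genes. Since the choice of the genes used this comparison, nothing is read from these counts.

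In Pietrain the median LFC of the 11 identifiers was 0.50, from -0.10 to 1.65, with 10 above 0, beside a median of 0.02 and 52.4% above 0 over 12065 genes. None was called by edgeR or by DESeq2, beside 0.0% of all genes called in either direction by edgeR. The study's own DESeq2 results, by contrast, listed MGP among the genes changed in both breeds. The reason for that difference was not tested. At an unadjusted p under 0.05 there were 2 of the 11 and 398 of all genes, and nothing is read from this count either. FBLN1 was the gene whose groups did not overlap, beside 2.08% of all genes whose groups were apart and higher. The 2 breeds do not share pigs, but they share the choice of the genes.

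**Figure D2:**
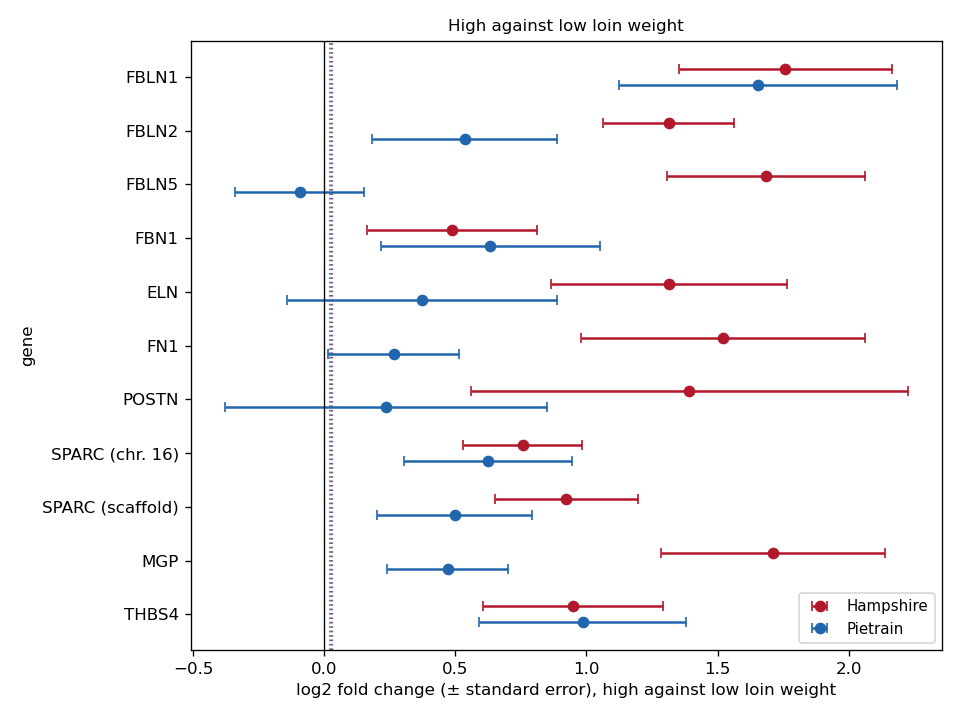
LFC (log2) for high against low loin weight (horizontal axis) of each gene in Hampshire (red) and Pietrain (blue), with bars of 1 SE; dotted lines are the medians of all genes, 0.03 and 0.02. FBLN1 lies at 1.76 and 1.65, while FBLN5 lies at 1.68 in Hampshire and at -0.10 in Pietrain.

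In Hampshire the genes shared an order of pigs within groups, and in Pietrain-high they did not. Hampshire pig 9 had the highest level of all 13 pigs for 8 of the 11 identifiers and pig 10 for 2, while pig 8 had the lowest level of its group for all 11. In the low loin weight group of Hampshire, pig 1 was lowest for all 11. In Pietrain-low, pig 3 was highest for 10 of the 11 and lowest for FBLN5. In Pietrain-high the highest level was in pig 1 for 3, in pig 2 for 6 and in pig 6 for 2 identifiers, and the lowest in pig 1 for 1, in pig 6 for 4 and in pig 7 for 6. The highest FBN1 of all pigs was in Pietrain pig 6, which had the lowest FBLN1, FBLN2, FBLN5 and ELN of its own group. The mean of the centred log2 CPM over the identifiers was 0.32, 1.69 and 1.32 in Hampshire pigs 8, 9 and 10 and -0.81, 0.35 and 0.13 in pigs 1, 2 and 3. In Pietrain pigs 1, 2, 6 and 7 it was -0.21, 0.22, -0.20 and -0.72, and in pigs 3, 5 and 8 it was -0.27, -0.81 and -0.99.

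**Figure D3:**
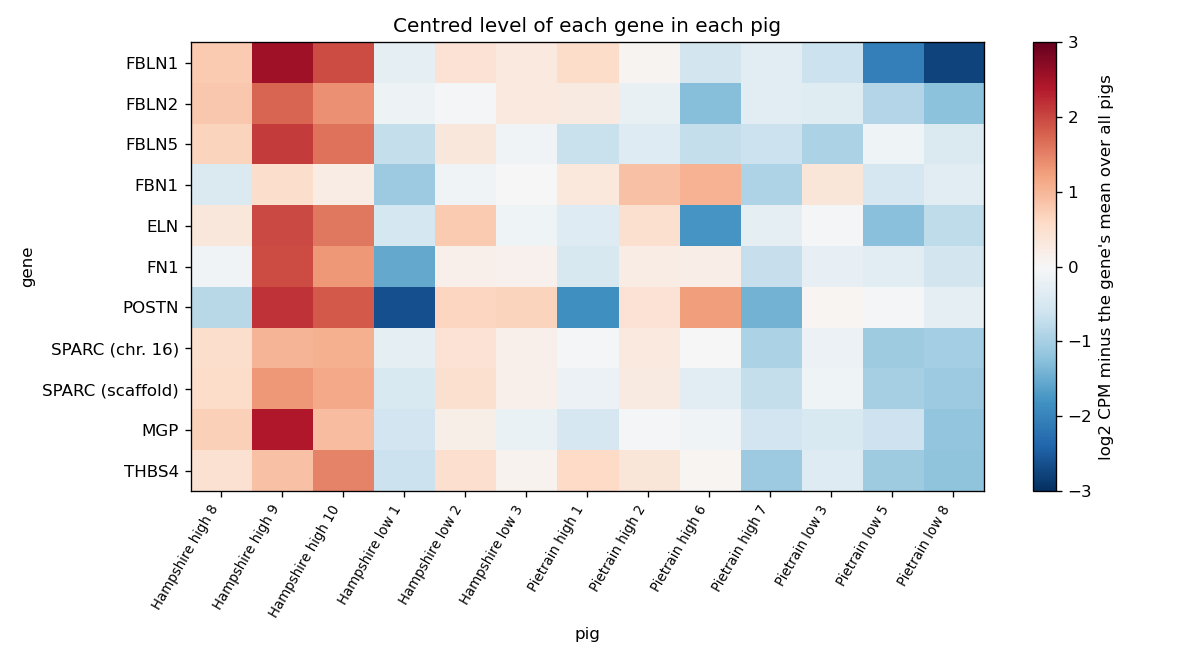
Log2 CPM of each gene (rows) minus its mean over all pigs, in each pig (columns), from blue (below the mean) to red (above it). Hampshire high loin weight pigs 9 and 10 are red in nearly every row, and FBN1 and POSTN are red in Pietrain pig 6 where ELN and FBLN2 are blue.

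The breeds were then compared within each loin weight class, in 1 fit over all pigs. The choice of the genes did not use these comparisons, but they share their pigs with those above, so FBLN1 and MGP are again described without a p-value, and their calls are counted as a description only. The breeds stood in separate count tables, and the sources used here say that indexed libraries were pooled, but not whether a pool held both breeds, so breed and such a batch cannot be told apart.

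In pigs with high loin weight, 8 of the 11 identifiers, FBLN1 and MGP among them, were called higher in Hampshire than in Pietrain, beside 22.6% of all 12831 genes called higher and 24.2% called lower. FBLN5 had the largest LFC of the set, at 35.9 ± 16.2 CPM (SD over 3 pigs) in Hampshire against 7.84 ± 0.840 CPM (SD over 4 pigs) in Pietrain, an LFC of 2.19 (SE 0.317, adjusted p = 0.000134, edgeR). FBLN2 was higher by 1.64 (log2, SE 0.318, adjusted p = 0.00102, edgeR) and ELN by 1.77 (SE 0.496, adjusted p = 0.0101). FBN1 did not pass, at 16.7 ± 5.34 CPM (SD over 3 pigs) against 21.2 ± 10.3 CPM (SD over 4 pigs), with an LFC of -0.34 (SE 0.409, adjusted p = 0.511, edgeR). With a trend on gene span removed, the value for FBN1 turned to 0.18 (adjusted p = 0.716, edgeR).

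FN1 was also higher in Hampshire-high pigs, by 1.41 in log2 units (SE 0.433, adjusted p = 0.0164, edgeR). The SPARC models were higher by 1.23 (scaffold, SE 0.296, adjusted p = 0.00419) and 0.99 (chromosome 16, SE 0.292, adjusted p = 0.0128). POSTN had an LFC of 1.40 (SE 0.789, adjusted p = 0.158, edgeR) and THBS4 one of 0.90 (SE 0.381, adjusted p = 0.0650), and neither passed. The log2 differences of FBLN1 and MGP were 1.96 (SE 0.455) and 1.84 (SE 0.350). The groups did not overlap for 6 identifiers, namely FBLN1, FBLN2, FBLN5, both SPARC models and MGP, all higher in Hampshire. Of all 12831 genes tested, 24.0% were apart in this way and higher in Hampshire. Without Hampshire pig 9 the count of 8 fell to 5, since FN1, ELN and the chromosome 16 model of SPARC no longer passed, and with the trend on gene span removed the chromosome 16 model did not pass (adjusted p = 0.207) while THBS4 did (adjusted p = 0.0132, edgeR). THBS4 also passed with DESeq2 (adjusted p = 0.0472).

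In pigs with low loin weight FBLN1, at 6.14 ± 1.48 CPM (SD over 3 pigs) in Hampshire and 1.74 ± 1.43 CPM (SD over 3 pigs) in Pietrain, was the 1 identifier of 11 called higher, with an LFC of 1.84 (SE 0.540), beside 7.84% of all genes called higher and 10.1% called lower. That call was lost when any of Hampshire-low pigs 2 and 3 or Pietrain-low pigs 5 and 8 was left out. Every Hampshire pig lay above every Pietrain pig for FBLN1 and FBLN2, as for 21.4% of all genes. FBLN2 had an LFC of 0.84 (SE 0.348, adjusted p = 0.102, edgeR) and the chromosome 16 model of SPARC one of 0.84 (SE 0.318, adjusted p = 0.0771). With DESeq2 that SPARC model passed (adjusted p = 0.0489), and in an edgeR fit of only the 2 groups FBLN2 did (adjusted p = 0.0421) and the SPARC model did not (adjusted p = 0.0590). For FBLN5, FN1, POSTN and FBN1 the LFCs were 0.37, 0.13, 0.23 and -0.22, with SEs of 0.34, 0.47, 0.86 and 0.44. ELN, THBS4 and the scaffold model of SPARC, at 0.79, 0.93 and 0.78, did not pass (adjusted p = 0.314, 0.133 and 0.100, edgeR), and the LFC of MGP was 0.56.

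**Figure D4:**
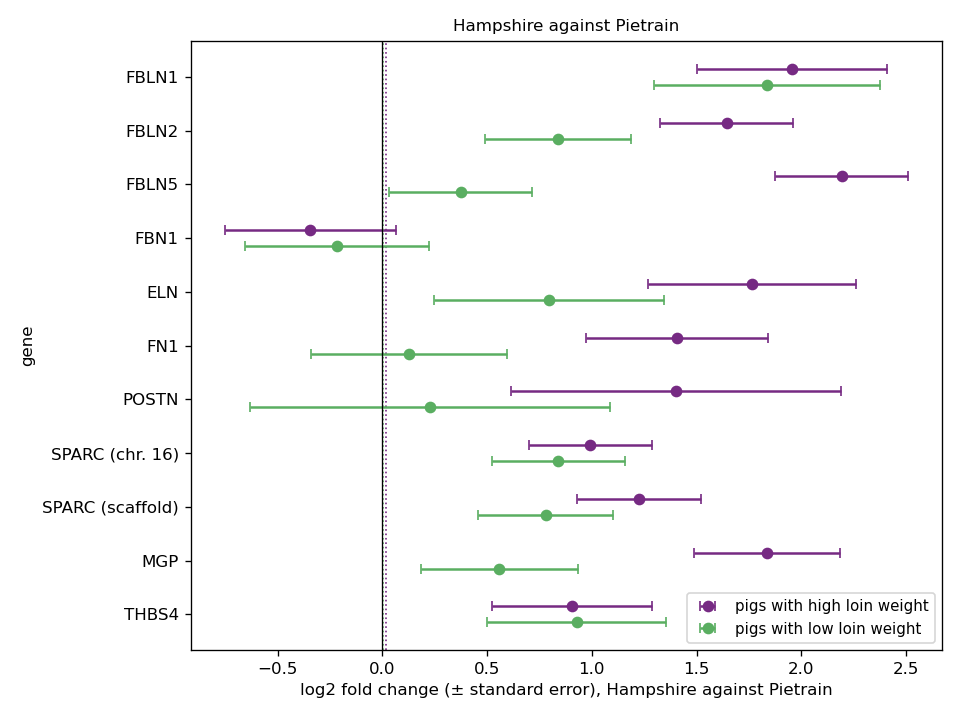
LFC (log2) of Hampshire against Pietrain (horizontal axis) of each gene in pigs with high (purple) and low (green) loin weight, with bars of 1 SE; dotted lines are the medians of all genes, 0.02 and 0.00. FBLN5 lies at 2.19 and 0.37, and FBN1 lies below 0 in both, at -0.34 and -0.22.

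The difference between the breeds in the effect of loin weight was estimated in the same fit. It is made of the 2 contrasts behind the choice of the genes, so it is a description for them. FBLN5 had the largest value, an effect larger by 1.82 in log2 units in Hampshire (SE 0.465), and was the 1 identifier of 11 past the threshold of 0.05, beside 1.68% of all genes with a larger and 4.22% with a smaller effect in Hampshire. With each pig left out in turn the difference for FBLN5 lay between 1.40 and 2.06, and it was past the threshold in 4 of 13 fits. With the trend on gene span removed it was 2.13, and with DESeq2 1.84.

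Fibroblasts are among the cells that make such proteins, and the cells that made these transcripts were not identified here. The summed CPM of 8 fibroblast markers (COL1A2, COL3A1, DCN, LUM, DPT, PDGFRA, THY1 and PI16) was 2040, 5185 and 4116 in Hampshire pigs 8, 9 and 10 and 786.5, 1730 and 1697 in pigs 1, 2 and 3. In Pietrain it was 893.9 to 2375 in the high and 996.4 to 1663 in the low group. In Hampshire all 8 markers were above 0 in log2 units for high against low loin weight, beside 51.6% of all genes. There 4 of the markers were called higher, beside 12.0% of all genes. Between the breeds 6 of 8 were called higher at high loin weight, beside 22.6% of all genes, while at low loin weight their median LFC was -0.06. The part of these cells in the differences above was not tested.

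When each gene was set against that sum, a scale chosen after seeing the data, FN1 lay at nearly the same ratio in all groups. COL3A1, COL1A2 and DCN weighed most in the sum, with median levels of 748.1, 399.4 and 329.5 CPM over the pigs. COL1A2 and COL3A1 were also the genes most like FN1 in pattern, as given below, so its even ratio is no separate result. The log2 ratio of FN1 was -4.60 ± 0.360 (SD, n = 3) and -4.66 ± 0.324 (SD, n = 3) in Hampshire high and low loin weight pigs, and -4.66 ± 0.221 (SD, n = 4) and -4.61 ± 0.223 (SD, n = 3) in Pietrain. The log2 ratio of FBLN1 in Pietrain was -8.25 ± 0.855 (SD, n = 4) with high and -9.91 ± 0.842 (SD, n = 3) with low loin weight, and in Hampshire it was -7.57 ± 0.217 (SD, n = 3) and -7.78 ± 0.284 (SD, n = 3). That of FBN1 in Hampshire was -7.77 ± 0.211 (SD, n = 3) with high and -6.87 ± 0.0807 (SD, n = 3) with low loin weight. Between high and low loin weight pigs of Hampshire the mean log2 ratio differed by -0.90 (FBN1) to 0.23 (FBLN5) over the 11 identifiers, beside LFCs of 0.49 to 1.76. In Pietrain it differed by -0.55 (POSTN) to 1.66 (FBLN1), beside LFCs of -0.10 to 1.65. Between the breeds the range was -0.36 (POSTN) to 2.12 (FBLN1) at low loin weight, beside -0.22 to 1.84. At high loin weight it was -1.39 (FBN1) to 0.92 (FBLN5), beside -0.34 to 2.19. What lies behind these values was not tested.

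**Figure D5:**
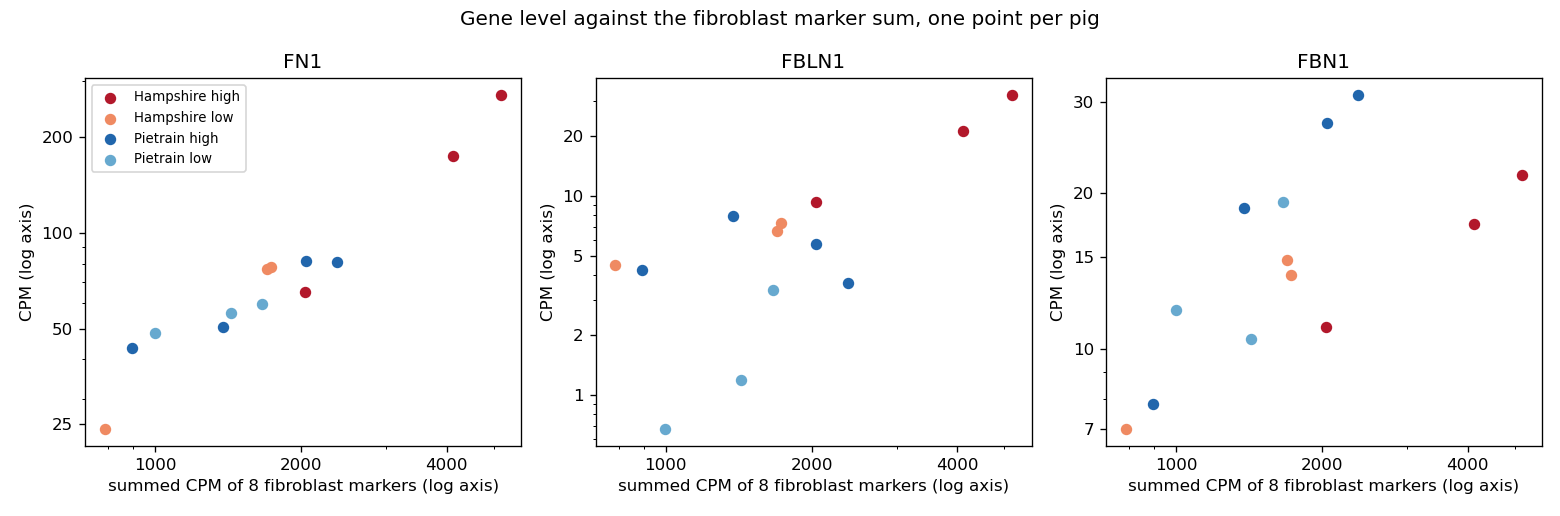
CPM of FN1, FBLN1 and FBN1 (vertical log axes) against the summed CPM of 8 fibroblast markers (horizontal log axes), 1 point per pig, coloured by group. FN1 follows the sum from 786.5 to 5185 CPM in all groups, while FBN1 in Hampshire pigs 9 and 10 lies below that of Pietrain pigs 2 and 6.

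Other cell types were looked at in the same way. Macrophage markers (CD68, CSF1R, MRC1, C1QA, C1QB and C1QC) summed to 139.1 to 193.4 CPM and 45.3 to 120.2 CPM in Hampshire high and low loin weight pigs, but to 17.5 to 52.7 CPM and 15.1 to 24.3 CPM in Pietrain. Between the breeds, 6 of 6 were called higher in Hampshire with high and 5 with low loin weight, beside 22.6% and 7.84% of all genes. For high against low loin weight in Hampshire, 12.0% of all genes were called higher and 14.6% lower. In that comparison smooth muscle and pericyte markers were called higher for 2 of 6, endothelial markers for 1 of 4 and adipocyte markers for 1 of 2. Nothing is read from such small counts. No macrophage or blood marker was called by edgeR, with median LFCs of 1.03 and 0.20. Of the 3 tendon markers tested (TNMD, FMOD and KERA) 3 were called higher, and their sum with MKX was 23.4 to 54.7 CPM against 4.22 to 9.43 CPM, with TNMD at 0 counts in 6 pigs and MKX in 10. That sum is mainly FMOD, which reached 50.2 CPM, while TNMD, KERA and MKX reached 3.55, 3.39 and 0.07 CPM at most. Adipocyte markers (PLIN1 and CIDEC) summed to 29.0 CPM in 1 Hampshire-high pig and to 11.1 CPM or less in the others. Of 6 muscle fibre markers 2 were called higher and 1 lower for loin weight in Hampshire. The part of these cell types in the results was not tested either.

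The LFC for loin weight in Hampshire fell with the length of a gene on the chromosome. Across 9945 genes, which are not independent replicates, it had a Spearman correlation of -0.386 with span. In Pietrain the correlation was weak, at -0.089 across 9964 genes. For Hampshire against Pietrain it was -0.391 at high and -0.215 at low loin weight, across 9975 genes. The genes described here span from 4163 bases (MGP) to 200247 bases (FBN1). With the trend removed, the Hampshire LFC for loin weight was 1.31 for MGP, 0.87 for FBN1, 2.15 for FBLN1 and 0.43 for the chromosome 16 model of SPARC, and 5 of 11 identifiers were called, beside 978 of 12228 genes called higher. MGP and both SPARC models were no longer among them, and FN1 and THBS4 were.

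Other genes of elastic fibres and microfibrils behaved as follows. Of 18 tested, 6 were called higher with high loin weight in Hampshire, beside 12.0% of all genes. The median LFC over the list was 0.80. MFAP5, a microfibril glycoprotein, rose from 6.56 ± 2.55 to 28.5 ± 13.0 CPM (SD, n = 3 each), an LFC of 2.11 (SE 0.382, adjusted p = 0.00699, edgeR). EFEMP2, which is fibulin-4, rose by 0.90 in log2 units (SE 0.225, adjusted p = 0.0205). Between breeds 9 of 18 were higher in Hampshire with high loin weight, beside 22.6% of all genes. MFAP5 was higher by 2.68 and EFEMP2 by 1.42 in log2 units (adjusted p = 0.000434 and 0.000449, edgeR). With low loin weight 3 of 18 were higher, beside 7.84% of all genes. Among them were LOXL1, an enzyme that crosslinks elastin, by 2.16 and EMILIN1, an elastic fibre glycoprotein, by 0.90 (adjusted p = 0.0148 and 0.0328, edgeR).

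Of 23 other matricellular and adhesive glycoproteins, 6 were higher and 1 lower with high loin weight in Hampshire. Of all genes, 12.0% were called higher and 14.6% lower there. THBS2, a relative of THBS4, rose from 5.13 ± 2.65 to 42.2 ± 20.6 CPM (SD, n = 3 each), an LFC of 3.04 (SE 0.465, adjusted p = 0.00416, edgeR), and SMOC1, a relative of SPARC, rose by 1.38 (adjusted p = 0.0170). SPOCK2, a proteoglycan of the SPARC family, fell by 1.25 in log2 units (adjusted p = 0.00575, edgeR). Between breeds 11 of 23 were higher in Hampshire with high loin weight, beside 22.6% of all genes. Among them were ECM1 by 2.09 and TNXB, which encodes tenascin-X, by 2.05 (adjusted p = 0.000221 and 0.00127, edgeR). With low loin weight 2 of 23 were higher, near the 7.84% of all genes, so nothing is read from that count. They were ECM1 by 1.72 and SPOCK2 by 1.04 (adjusted p = 0.0146 and 0.0316, edgeR). The effect of loin weight on SPOCK2 differed between breeds by -1.47 in log2 units (adjusted p = 0.0496, edgeR). SPOCK2 was the 1 gene of 23 with a smaller effect in Hampshire called there, beside 4.22% of all genes. Nothing is read from that count.

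Of 6 genes of Gla proteins and calcification, 1 was called higher and 1 lower with high loin weight in Hampshire, beside 12.0% and 14.6% of all genes. GAS6, another vitamin K-dependent protein, rose there by 1.38 in log2 units (SE 0.314, adjusted p = 0.0149, edgeR). ANKH, a pyrophosphate transporter that limits mineral deposition, fell by 1.31 (SE 0.202, adjusted p = 0.00429, edgeR). At low loin weight, ANKH and GAS6 were higher in Hampshire than in Pietrain, by 1.76 and 1.30 (adjusted p = 0.0276 and 0.0375, edgeR). They were the 2 of 6 called higher, beside 7.84% of all genes. At high loin weight GAS6 was higher in Hampshire by 2.25 (adjusted p = 0.000251), and GGCX, the carboxylase that modifies Gla proteins, was lower, with an LFC of -0.53 (adjusted p = 0.0172, edgeR). That made 1 of 6 higher and 1 lower, beside 22.6% and 24.2% of all genes. Nothing is read from such small counts.

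Of 12 receptors of matrix glycoproteins tested, 2 were lower with high loin weight in Hampshire, beside 14.6% of all genes called lower. They were ITGB1, by -0.62, and ITGAV, by -0.64 in log2 units (adjusted p = 0.0254 and 0.0316, edgeR). Both are integrin subunits that bind fibronectin and periostin. At high loin weight 2 were higher and 3 lower in Hampshire than in Pietrain, beside 22.6% and 24.2% of all genes. Higher were ENG, an endothelial coreceptor, by 1.5 and MRC2, a collagen receptor, by 1.44 (adjusted p = 0.00280 and 0.00316, edgeR). ITGAV, by -1.23, and ITGB1, by -0.94, were among those that were lower (adjusted p = 0.00261 and 0.00287, edgeR). At low loin weight CD36, which binds thrombospondins, was the 1 receptor called, lower in Hampshire by -0.82 (adjusted p = 0.0296, edgeR). Over all genes, 10.1% were called lower in that comparison. The receptor counts lie near the shares of all genes, so nothing is read from them. For loin weight in Pietrain, where edgeR called 0 genes of the whole table, 398 had an unadjusted p under 0.05 and DESeq2 called 1, no gene of these 4 lists was called by edgeR, and the median LFCs of the lists were 0.22, 0.17, 0.35 and 0.13 in the order described.

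Likeness of pattern was measured by the root mean square difference of centred log2 CPM over the 13 pigs. The search covered the 9815 genes with a symbol that passed the filter, so genes without a symbol were not compared. The genes most like FN1 were COL1A2, COL3A1 and COL14A1, at 0.25, 0.26 and 0.28. POSTN was nearest to FN1 itself, but at 0.70. FBN1 was nearest to ECM2, DSE and PTPN13, at 0.22, 0.27 and 0.29, none of them a gene of this set. Those nearest to ELN were TRIM47, GAS6 and TNXB, at 0.34, 0.36 and 0.36. FBLN1 was nearest to SOD3, HIC1 and ACKR3, at 0.46, 0.52 and 0.53, FBLN2 to DUSP23, OGFOD3 and BAD, at 0.27, 0.30 and 0.30, and FBLN5 to TEN1, SERPING1 and TIMP2, at 0.34, 0.34 and 0.35. MGP was nearest to VIM, SLC1A5 and PTGS1, at 0.26, 0.30 and 0.30. The 2 SPARC models were nearest to each other, at 0.16, followed by CPXM2 and GPC3 for the chromosome 16 model and ITIH5 and TNKS1BP1 for the scaffold model, at 0.20 to 0.23. THBS4 was nearest to the chromosome 16 model of SPARC, at 0.26, to CKB, at 0.30, and to the scaffold model, at 0.32.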

How the data were processed

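Longissimus lumborum RNA of 13 pigs was sequenced by the authors in single-end runs after a library protocol that starts from total RNA. They aligned the reads to Sscrofa10.2 and deposited raw counts per Ensembl gene, 1 table per breed. The submitters' processing notes name FastQC, STAR, RSEM and DESeq2, with no role, and the aligner's and counter's versions and the annotation release are not given in the sources used here. The authors' deposited tables of their own DESeq2 comparisons (fold changes and p-values) were used only for symbols and positions.

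Of 25322 genes, 13168 had a symbol, 6102 of them from the reference names only. In R 4.3.3, edgeR 4.0.16 (TMM, filterByExpr, glmQLFit, glmQLFTest) was fitted per breed for loin weight and over all pigs for the other contrasts, and checked on simulated data. Standard errors were computed from the F statistic. The threshold for DEGs was an adjusted p-value of 0.05 with a 1.2-fold change, or the former alone for the difference between the breeds. Log2 CPM used a prior count of 2. Pigs of a group differed beyond sampling noise in all 15 pairs.

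The genes, lists and tests were chosen with earlier results of these data known. Named were all members, up to 2 called genes per direction of each of 4 lists of related genes, and the 3 nearest patterns. The other lists held cell type markers, and 101 of 126 list symbols matched. Alternatives were DESeq2 1.42.0, DESeq2's size factors, no filter, at least 10 counts in every pig, a lowess trend on gene span removed, other sets of pigs, and each pig left out.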

Additional observations from a re-analysis of the deposited data

Results flagged for a closer look

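The effect of loin weight on FBLN5 in Hampshire minus that in Pietrain was 1.82 on the log2 scale (standard error 0.465). It is listed because it was past the threshold in the edgeR fit of all pigs, but in only 4 of 13 fits with 1 pig left out, and it is made of the 2 contrasts behind the choice of the genes, so it is no independent test. The level of FBLN5 was higher with high loin weight in Hampshire, while the Pietrain groups lay within each other. Among the Pietrain pigs with high loin weight, pig 2 stood apart for FBLN5, at 9.09 CPM against 7.27 to 7.55 CPM in the other 3: its gap to the nearest pig was 0.846 of the group's range, above Dixon's critical value for 4 pigs. The same comparison was made for 11 identifiers, and chance gives such a gap in about 1 of 20 groups.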

How the results depend on the processing

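No paired analysis was possible because the groups compared share at most 1 pig number, which names different animals. Breed and preparation cannot be told apart, groups of 3 or 4 pigs limit every test, and FBLN1 rests on as few as 10 reads in a pig. Without 1 pig, Hampshire-high against Hampshire-low gave 1224 to 3049 genes (3256 with all pigs) and 1 to 8 of the 11 identifiers (6), Hampshire against Pietrain at low loin weight 109 to 3091 genes (2300) and 0 to 3 identifiers (1), the same at high loin weight 5 to 9 identifiers (8), and the difference between the breeds 379 to 1052 genes (757) and 0 to 1 identifiers (1). The lowest gene counts came without Hampshire-low pig 2 (109) and Hampshire-low pig 3 (379). DESeq2 called 1 gene in Pietrain, 1220 for the difference between the breeds and 2 identifiers for breed at low loin weight (FBLN1 and the chromosome 16 model of SPARC), and a fit of only the 2 groups called 2 (FBLN1 and FBLN2). With the trend on gene span removed, 498 genes differed between the breeds in effect, and FBN1 for breed at high loin weight became 0.18. Over the fibroblast marker sum, added after seeing the data, log2 values for loin weight in Hampshire turned to -0.90 for FBN1, -0.14 for FBLN2, -0.13 for ELN, -0.46 for THBS4, and -0.65 and -0.47 for the chromosome 16 and scaffold models of SPARC. In Pietrain they turned to -0.55 for POSTN, -0.047 for FN1 and -0.017 for ELN, for breed at high loin weight to -0.13 for the chromosome 16 model and -0.20 for THBS4, and at low loin weight to -0.36 for POSTN and -0.042 for FN1. Leaving out 1 pig, sign changes occurred for Pietrain loin weight in FBLN5 (-0.26 to 0.085), ELN (-0.0044 to 0.79) and POSTN (-0.47 to 0.58), and for breed at low loin weight in FBN1 (-0.39 to 0.15), FN1 (-0.067 to 0.51) and POSTN (-0.085 to 0.76). The causes were not tested.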
